A study of Homo sapiens with 16 samples.

Results

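The mRNAs described here were 7 of the 35106 gene rows in the count table, chosen by symbol: TXNIP, ARRDC1, ARRDC2, ARRDC3, ARRDC4, MLXIP (the gene of MondoA) and MLX. They were proposed with the response of these same cells to MitoQ already known, so their values under MitoQ are given as a description with no test. The cells were MDA-MB-231, a triple-negative breast cancer line with mesenchymal traits, and SKBR3, a breast cancer line with ERBB2 amplification. Both were grown in high-glucose medium with serum. MitoQ is a ubiquinone carried into mitochondria by a lipophilic triphenylphosphonium cation. The groups were MDA-MB-231 control (5 libraries), MDA-MB-231 with 500 nM MitoQ for 48 h (5), SKBR3 control (3) and SKBR3 with 500 nM MitoQ for 48 h (3). The labels give passage 25 for MDA-MB-231 and 10 for SKBR3, and passage cannot be told apart from line, while each tumour type is represented by 1 line. The sources used here give neither what control cells received nor whether libraries came from separate cultures. P-values therefore measure the spread between these libraries, which may be technical.

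TXNIP and ARRDC1 to ARRDC4 are alpha-arrestins, adaptor proteins that bring NEDD4-type ubiquitin ligases to membrane proteins and so steer receptors and transporters into the cell. TXNIP also binds and inhibits thioredoxin, and it lowers glucose uptake by promoting the internalisation of the glucose transporter GLUT1. MondoA and its obligate partner MLX form a transcription factor that responds to glucose 6-phosphate and that can reside at the outer mitochondrial membrane. TXNIP and ARRDC4 are its classical target genes, bound at carbohydrate response elements made of paired E-box-like elements. In breast cancer, TXNIP and ARRDC3 are known as growth-restraining genes that are often low in aggressive tumours.

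Promoters are shown for the 3 members whose sequence held E-box letters or paired E-box-like elements. Each sequence covers bases -250 to -41 from the RefSeq transcription start (GRCh38.p14), is written 5′ to 3′ in the direction of the gene, and has the matches to the motifs searched in capitals.

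TXNIP promoter (chr1:145996620-145996829, minus strand): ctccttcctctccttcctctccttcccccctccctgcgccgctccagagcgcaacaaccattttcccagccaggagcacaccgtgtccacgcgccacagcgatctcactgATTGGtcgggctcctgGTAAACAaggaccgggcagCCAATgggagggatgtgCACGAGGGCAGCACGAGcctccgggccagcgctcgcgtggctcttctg
ARRDC4 promoter (chr15:97960453-97960662, plus strand): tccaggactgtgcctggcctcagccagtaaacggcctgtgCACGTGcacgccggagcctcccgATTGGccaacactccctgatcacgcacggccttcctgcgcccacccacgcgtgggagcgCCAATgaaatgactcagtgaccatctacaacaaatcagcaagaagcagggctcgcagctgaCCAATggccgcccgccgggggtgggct
MLX promoter (chr17:42566850-42567059, plus strand): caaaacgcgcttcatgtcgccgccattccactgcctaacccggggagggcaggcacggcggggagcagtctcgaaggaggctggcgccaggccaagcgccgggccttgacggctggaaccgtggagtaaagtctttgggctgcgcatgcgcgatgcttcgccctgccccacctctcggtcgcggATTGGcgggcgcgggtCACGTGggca

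The motifs searched, 4 in all and on both strands, were the E-box CACGTG, the paired E-box-like elements (CNCGNG, any 5 bases, CNCGNG), the CCAAT box bound by NF-Y (ATTGG on the other strand) and the forkhead motif GTAAACA. The TXNIP promoter held the paired elements once, as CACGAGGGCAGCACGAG at -88 to -72, together with 2 CCAAT boxes (from -140 and -105) and 1 forkhead motif (-124 to -118). None of its matches overlapped another. Of 35116 RefSeq promoters searched over the same 210 bases, 1.49% held the paired elements and 2.5% the forkhead motif. The ARRDC4 promoter held 1 E-box (-210 to -205) and 3 CCAAT boxes, and the MLX promoter 1 E-box (-50 to -45) and 1 CCAAT box. Neither of these 2 promoters held the paired elements in the bases searched. An E-box was present in 5.04% and a CCAAT box in 28.8% of all promoters. In the first promoters of ARRDC1, ARRDC3 and MLXIP the only match was 1 CCAAT box each. ARRDC2 had no match at its first start and 1 CCAAT box at its second, while the second starts of TXNIP and ARRDC3 had none. These are matches of letters and not measured binding.

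TXNIP mRNA (ENSG00000265972, chromosome 1, 145992435 to 145996600, minus strand in GENCODE 29 on GRCh38) was the member that differed most with MitoQ in MDA-MB-231. Levels are CPM, counts scaled to a common library size with TMM factors over all 16 libraries. In the 5 MDA-MB-231 controls TXNIP lay at 93.0, 96.1, 93.3, 89.8 and 89.6 CPM. In the 5 MitoQ libraries it lay at 478, 475, 479, 488 and 473 CPM. Every MitoQ library was above every control, and the spread within each group was small (mean ± SD 92.4 ± 2.71 and 479 ± 6.0 CPM, n = 5 each). The log2 fold change was 2.40 ± 0.042 (SE), a 5.26-fold higher level, the 86th highest log2 fold change of 15304 genes tested. By mean CPM the gene went from rank 2672 to rank 260 in the table.

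In SKBR3 the TXNIP levels with and without MitoQ overlapped. The 3 controls lay at 53.8, 61.7 and 53.0 CPM and the 3 MitoQ libraries at 52.8, 64.2 and 53.9 CPM. The log2 fold change was 0.0037 ± 0.091, and it lay between -0.078 and 0.10 with single libraries left out. The MitoQ change in SKBR3 minus that in MDA-MB-231 was -2.35 ± 0.084 on the log2 scale. Ordered by level, MDA-MB-231 with MitoQ stood highest, then its control, then both SKBR3 groups, which did not differ beyond their spread.

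**Figure D1:**
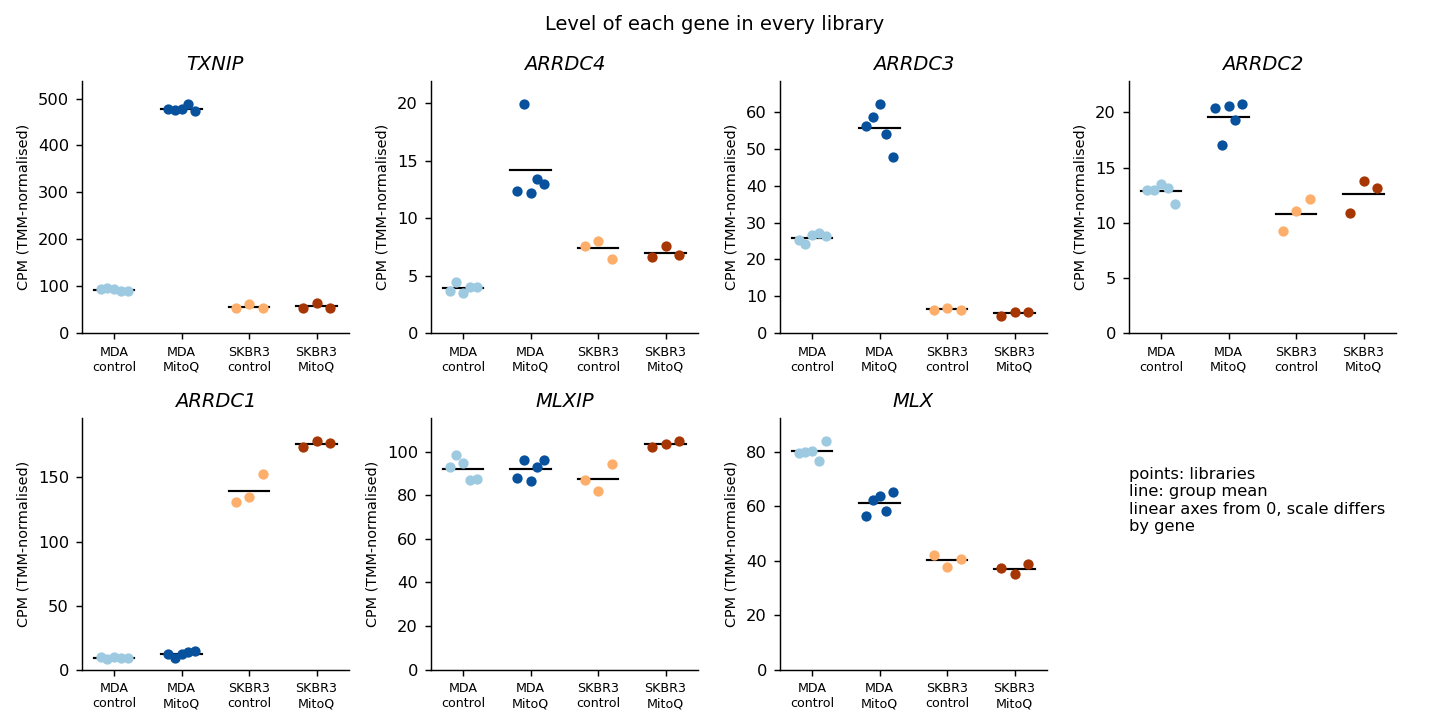
Level of each of the 7 genes in every library, in CPM on linear axes that start at 0 and differ by gene. Points are libraries and lines are group means. TXNIP in the 5 MDA-MB-231 MitoQ libraries lies between 473 and 488 CPM, above every other library, while ARRDC1 is high in SKBR3 alone and MLXIP lies between 81.7 and 105 CPM in all 16 libraries.

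ARRDC4 (ENSG00000140450, chromosome 15, 97960698 to 97973838, plus strand), the other classical MondoA target, had the same order of groups in MDA-MB-231 at a much lower level. Its controls lay at 3.63, 4.41, 3.44, 4.04 and 4.03 CPM. With MitoQ it lay at 12.4, 19.9, 12.2, 13.4 and 13.0 CPM. All MitoQ libraries were above all controls, and MitoQ library 2 stood above the other 4. The log2 fold change was 1.88 ± 0.13, a 3.69-fold higher level, and 1.74 without MitoQ library 2. In SKBR3 the controls lay at 7.6, 8.04 and 6.49 CPM and the MitoQ libraries at 6.64, 7.55 and 6.76 CPM. These groups overlapped (log2 fold change -0.089 ± 0.12, and 0.0081 without control library 2). The difference of the MitoQ changes between the lines was -1.93 ± 0.21.

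ARRDC3 (ENSG00000113369, chromosome 5, 91368724 to 91383359, minus strand) is an alpha-arrestin that promotes the ubiquitination and loss of integrin beta 4. Its mRNA lay at 25.4, 24.2, 26.7, 27.2 and 26.3 CPM in untreated MDA-MB-231. With MitoQ it lay at 56.2, 58.8, 62.3, 54.2 and 47.7 CPM. The groups did not overlap, and the log2 fold change was 1.13 ± 0.067, a 2.19-fold higher level. In SKBR3 the order was opposite, with controls at 6.16, 6.88 and 6.38 CPM and MitoQ libraries at 4.62, 5.76 and 5.85 CPM. All 3 MitoQ libraries lay below all 3 controls, with a log2 fold change of -0.28 ± 0.13 that did not place the gene among those called in that line and was -0.18 without MitoQ library 1. The changes differed by -1.36 ± 0.14 between the lines.

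ARRDC2 (ENSG00000105643, chromosome 19, 18001132 to 18014102, plus strand), a less studied member of the family, was higher with MitoQ in MDA-MB-231 by a smaller margin. The controls lay at 13.0, 13.0, 13.6, 13.2 and 11.7 CPM and the MitoQ libraries at 20.4, 17.0, 20.6, 19.3 and 20.8 CPM. They did not overlap (log2 fold change 0.63 ± 0.070). In SKBR3 the controls at 9.25, 11.1 and 12.2 CPM overlapped the MitoQ libraries at 10.9, 13.7 and 13.2 CPM (log2 fold change 0.19 ± 0.11). With single libraries left out, the SKBR3 value for ARRDC2 lay between 0.087 (without control library 1) and 0.29 (without control library 3).

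ARRDC1 (ENSG00000197070, chromosome 9, 137605654 to 137615360, plus strand) recruits TSG101 to the plasma membrane and drives the budding of small vesicles there. Untreated MDA-MB-231 libraries held 10.0, 8.30, 9.90, 9.03 and 9.37 CPM. With MitoQ it lay at 12.5, 9.47, 12.4, 13.5 and 14.2 CPM. MitoQ library 2 fell within the control range, so the groups overlapped. The log2 fold change was 0.44 ± 0.095, and 0.53 without that library. SKBR3 had far more of this mRNA, 131, 134 and 153 CPM in the controls and 174, 179 and 177 CPM with MitoQ. There all MitoQ libraries were above all controls (log2 fold change 0.31 ± 0.046). The MitoQ changes in the lines differed by -0.085 ± 0.12, less than its SE.

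MLXIP (ENSG00000175727, chromosome 12, 122078722 to 122147347, plus strand), which encodes MondoA, overlapped in MDA-MB-231 with and without MitoQ. The controls lay at 93.0, 98.6, 94.8, 86.8 and 87.4 CPM and the MitoQ libraries at 87.7, 96.1, 86.7, 93.0 and 96.4 CPM. The log2 fold change was 0.020 ± 0.050. In SKBR3 it lay at 86.8, 81.7 and 94.3 CPM in the controls and at 102, 104 and 105 CPM with MitoQ. The SKBR3 groups did not overlap (log2 fold change 0.21 ± 0.043).

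MLX (ENSG00000108788, chromosome 17, 42567068 to 42573239, plus strand), the partner of MondoA, was the one member lower with MitoQ in MDA-MB-231 beyond the spread of the libraries. Its controls lay at 79.5, 79.8, 80.1, 76.7 and 84.0 CPM. The MitoQ libraries lay at 56.5, 62.3, 63.7, 58.3 and 65.2 CPM, all below the controls (log2 fold change -0.37 ± 0.048). In SKBR3 the controls at 42.0, 37.7 and 40.6 CPM overlapped the MitoQ libraries at 37.2, 35.2 and 38.8 CPM (log2 fold change -0.15 ± 0.058; -0.087 without MitoQ library 2). By limma voom alone among the tools run, MLX was among the called genes of SKBR3. The value for MLX is uncertain, because 770 of its exon bases (18.1%) are shared on the opposite strand with PSMC3IP and the use of strand in counting was not stated. On either strand, 21.4% of its 31-base stretches occur in transcripts of other genes, against 0% to 8.55% for the other members. The bases shared with PSMC3IP enter that share too. PSMC3IP itself rose in MDA-MB-231 (log2 fold change 0.18 ± 0.055, edgeR adjusted p = 0.0099), from 25.0 to 27.8 CPM. In SKBR3 PSMC3IP did not pass the test (-0.15 ± 0.13, adjusted p = 0.454).

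**Figure D2:**
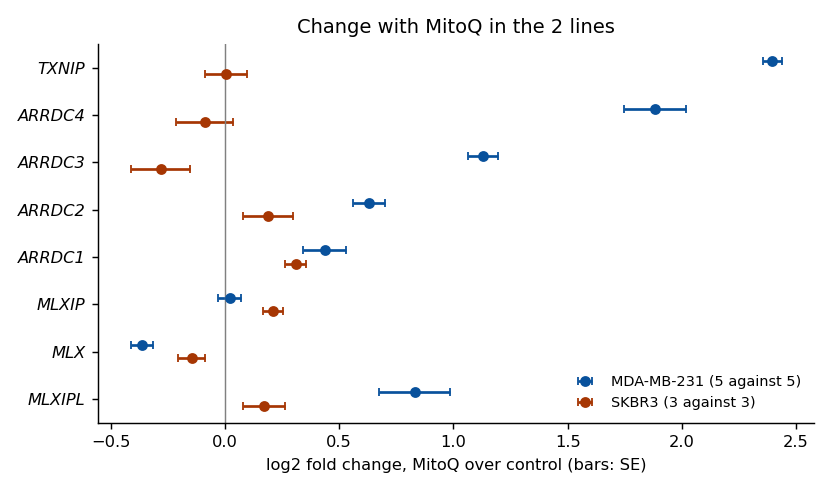
Log2 fold change of MitoQ over control for the 7 genes and for MLXIPL, by line, with bars of 1 SE. TXNIP, ARRDC4 and ARRDC3 lie at 2.40, 1.88 and 1.13 in MDA-MB-231 (5 against 5 libraries) and at 0.0037, -0.089 and -0.28 in SKBR3 (3 against 3), while ARRDC1 lies at 0.44 and 0.31.

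All 7 members passed the filter on low counts in every comparison. Of the 7, 6 were among the genes called in MDA-MB-231 (5 higher and 1 lower, adjusted p under 0.05), where 57.5% of all genes tested were called (29.9% higher and 27.6% lower). In SKBR3 2 of the 7, ARRDC1 and MLXIP, were among the called genes, where 28.0% of all genes were called (13.8% higher and 14.1% lower). For the difference of the changes between the lines it was 6 of 7, all but ARRDC1 and of these 2 higher and 4 lower, where 34.1% of all genes were called (19.1% higher and 14.9% lower). That background was 56.1% higher in SKBR3 relative to MDA-MB-231, and 41.6% when libraries were scaled by their totals alone. Groups without overlap occurred for 5 members in MDA-MB-231 and 3 in SKBR3, against 44.0% and 37.9% of all genes. For the difference, MLXIP and MLX were no longer among the called genes with plain library totals, which left 4 members, all lower. ARRDC2 was not among them without SKBR3 control library 2 or 3 or MitoQ library 1, and MLXIP without control library 2. Since MitoQ results were known when the members were chosen, nothing is read from these counts. The median log2 fold change of the 7 was 0.63 in MDA-MB-231 (0.012 over all genes) and 0.0037 in SKBR3 (-0.00064 over all genes). In bulk RNA a change in the share of cells that hold an mRNA and a change in the amount per cell cannot be told apart.

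The comparison of the untreated lines was tested for the members with edgeR's quasi-likelihood test and Benjamini-Hochberg adjustment over 16398 genes. It is not independent of the earlier results of these data. ARRDC1 had the largest difference, 139 ± 11.9 CPM in SKBR3 controls (n = 3) and 9.33 ± 0.698 CPM in MDA-MB-231 controls (n = 5), a 15.6-fold higher level (log2 3.97 ± 0.061, edgeR adjusted p = 3.72e-23). ARRDC4 was higher in SKBR3 as well, by 0.97 ± 0.13 on the log2 scale (edgeR adjusted p = 4.12e-07). In the other direction, ARRDC3 was 3.85-fold lower in SKBR3 (log2 -1.95 ± 0.079, edgeR adjusted p = 9.09e-16). MLX was also lower (log2 -0.93 ± 0.049, edgeR adjusted p = 8.93e-14), and so was TXNIP (log2 -0.66 ± 0.054, edgeR adjusted p = 1.91e-10). MLXIP did not pass the test (log2 -0.0048 ± 0.050, edgeR adjusted p = 0.929), and neither did ARRDC2 (log2 -0.18 ± 0.090, edgeR adjusted p = 0.0725). ARRDC2 passed in the absence of SKBR3 control library 3 (log2 -0.28, edgeR adjusted p = 0.0158) and of MDA-MB-231 control library 5 (log2 -0.21, edgeR adjusted p = 0.0451). In all 5 of 7 members passed, 2 higher and 3 lower in SKBR3, where 86.5% of all genes did (42.0% higher and 44.4% lower).

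Levels of different genes were compared per kilobase of annotated exon. Among the 5 alpha-arrestin mRNAs of the set, TXNIP made up 69.0 ± 1.07% in the MDA-MB-231 controls and 85.6 ± 0.504% with MitoQ (SD, n = 5 each). Their sum was 36.9 ± 0.652 CPM per kilobase in the controls and 154 ± 1.92 with MitoQ. The next most abundant was ARRDC3, at 14.3 ± 0.808% and 7.33 ± 0.673% of the sum. In SKBR3, ARRDC1 was the leading alpha-arrestin mRNA, with 63.5 ± 2.94% of the sum in controls and 68.5 ± 1.91% with MitoQ (n = 3 each). TXNIP came second there, with 27.0 ± 2.56% and 23.3 ± 1.60%. The sum in SKBR3 went from 57.5 ± 3.04 to 67.4 ± 2.84 CPM per kilobase. ARRDC5, the remaining human alpha-arrestin of this family, reached at most 0.565 CPM in any library and was not tested.

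**Figure D3:**
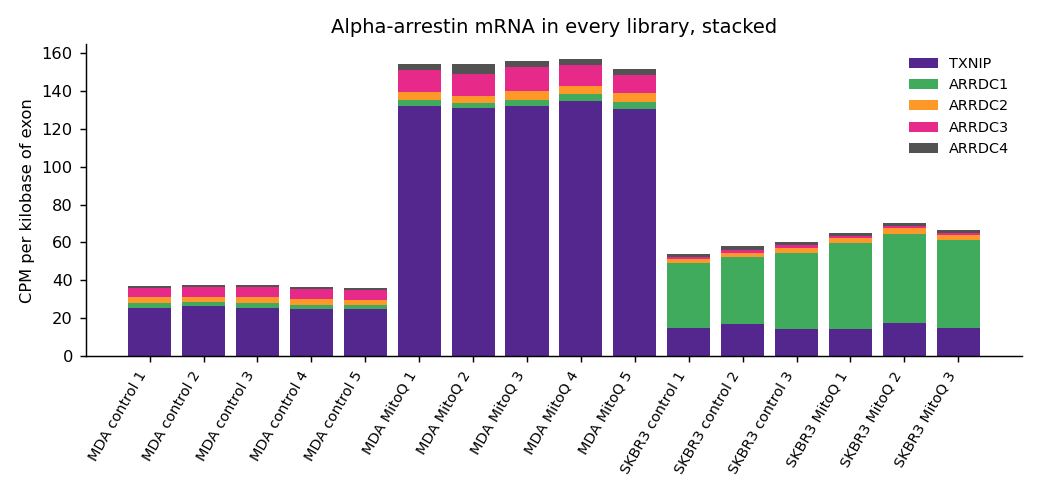
Level of the 5 alpha-arrestin mRNAs in each library, stacked, in CPM per kilobase of exon. Untreated MDA-MB-231 libraries reach 36.0 to 37.5 and MitoQ libraries 152 to 157, 85.0% to 86.1% of it TXNIP, while SKBR3 libraries reach 54.2 to 70.5, most of it ARRDC1.

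The ratio of MLXIP to MLX per kilobase describes the balance of the MondoA and MLX mRNAs. It was 0.353 ± 0.0222 in MDA-MB-231 controls and 0.461 ± 0.0282 with MitoQ, with no overlap between the 5 and 5 libraries. In SKBR3 it was 0.669 ± 0.0391 and 0.858 ± 0.0398, again with no overlap. Per kilobase, MLX was the more abundant of the pair in every library. That order rests on the exon length used, 13905 bases for MLXIP, since in CPM the ratio lay between 1.04 and 2.95. The ratio of TXNIP to ARRDC4 per kilobase was 26.7 ± 2.70 in MDA-MB-231 controls and 39.2 ± 7.10 with MitoQ, where MitoQ library 2 (26.7) lay within the control range and the other 4 lay above it. SKBR3 libraries ranged from 7.96 to 9.55 in that ratio. The ratios with MLX carry the uncertainty of its shared exon bases.

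**Figure D4:**
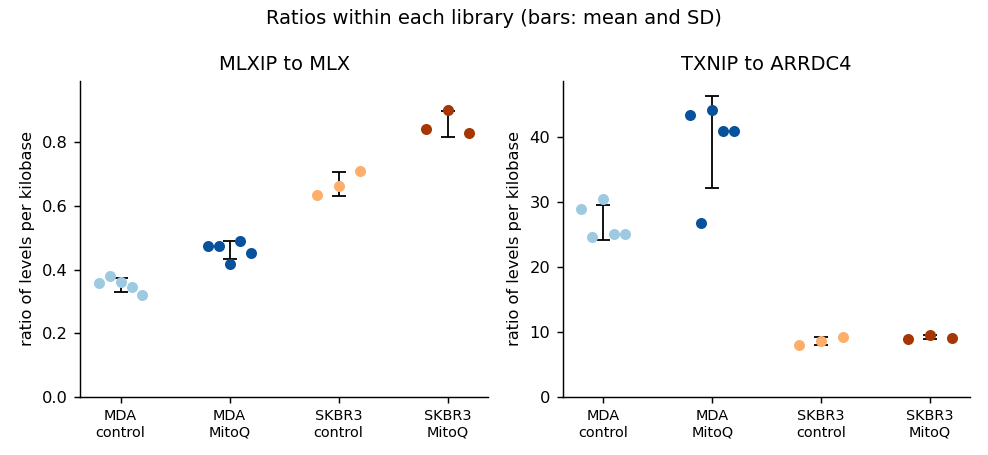
Ratio of MLXIP to MLX and of TXNIP to ARRDC4 in each library, from levels per kilobase of exon. Points are libraries and bars show mean and SD. The first ratio is higher with MitoQ in both lines, 0.461 against 0.353 and 0.858 against 0.669, and 1 MDA-MB-231 MitoQ library lies at 26.7 in the second, where the other 4 lie between 40.8 and 44.1.

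The remaining genes of the pathway were taken from lists and were tested. Changes are log2 fold changes ± SE, and adjusted p-values come from edgeR's quasi-likelihood test with adjustment over all genes. Over the 8 lists, 37 of 86 tested genes rose and 26 fell in MDA-MB-231, 73.3% called in all beside a background of 57.5%. In SKBR3 12 of 85 rose and 13 fell, 29.4% called beside a background of 28.0%. The SKBR3 count moved between 14 and 26 when single libraries were left out. The background by direction was 29.9% higher and 27.6% lower in MDA-MB-231, and 13.8% higher and 14.1% lower in SKBR3. The lists were chosen with earlier results of these data known. These shares and the counts by list below are therefore a description, and the adjusted p-values are no independent support.

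MondoA has a paralog, ChREBP, encoded by MLXIPL, that pairs with MLX as well. MLXIPL lay at 2.86, 2.28, 2.51, 2.91 and 3.49 CPM in MDA-MB-231 controls and at 5.45, 3.19, 5.65, 5.38 and 4.90 CPM with MitoQ. It rose (0.83 ± 0.15, edgeR adjusted p = 0.00014), although MitoQ library 2 lay within the control range. It did not pass in SKBR3 (0.17 ± 0.092, edgeR adjusted p = 0.195) except without control library 3. Its level in untreated SKBR3 was 5.67-fold higher than in untreated MDA-MB-231. The difference between the lines was -0.61 ± 0.20 (edgeR adjusted p = 0.0201) and was no longer called without SKBR3 control library 3 or MitoQ library 3.

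In the wider network of MAX and MLX partners, 7 of 10 tested genes rose in MDA-MB-231 and 1 fell, with a median of 0.54. Over all genes 29.9% were higher and 27.6% lower. MXD1, a repressor that pairs with MAX or MLX, rose most, from 16 ± 0.766 to 44.5 ± 3.05 CPM (1.5 ± 0.060, edgeR adjusted p = 1.50e-13). MYC rose from 158 ± 7.11 to 258 ± 23.5 CPM (0.72 ± 0.055), and MXI1, another repressor, by 0.73 ± 0.075. MXD3 fell by 0.78 ± 0.11, with 37.8% of its 31-base stretches found in other genes. MAX (0.11 ± 0.055) and MNT (0.093 ± 0.063) did not pass the test, but both passed as higher when libraries were scaled by their totals alone. In SKBR3 3 of 11 rose, MYC, MYCL and MXD3, and none fell. The MYC change there was small (0.13 ± 0.045, edgeR adjusted p = 0.0492) and was lost without any 1 of 4 libraries. The call for MYCL was lost without any 1 of 3 libraries and that for MXD3 without MitoQ library 3. MYCL held 62 and 126 counts over the SKBR3 control and MitoQ libraries. It rose in MDA-MB-231 too (0.88 ± 0.18), and its changes were not shown to differ between the lines (0.0086 ± 0.32). The changes of MXD1 and MYC differed between the lines, by -1.47 ± 0.096 and -0.55 ± 0.088.

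Known targets of MondoA and ChREBP other than TXNIP and ARRDC4 mostly fell in MDA-MB-231. Whether either factor had a part in this was not tested. Of 11 tested targets, 9 fell and 2 rose, with a median of -0.46 (0.012 over all genes), where 27.6% of all genes fell and 29.9% rose. KLF10, a transcription repressor induced by glucose, rose from 54.5 ± 2.12 to 88.6 ± 7.61 CPM (0.72 ± 0.056, edgeR adjusted p = 2.41e-09). RGS16, a regulator of G-protein signalling named after its values were seen, rose from 0.872 ± 0.226 to 3.71 ± 0.655 CPM (2.11 ± 0.18). The 9 genes that fell belong to sugar use (LDHA, PFKFB3, HK2 and KHK) and to fat synthesis (ACLY, ACACA, FASN, ELOVL6 and SCD). LDHA, lactate dehydrogenase A, fell by 1.21 ± 0.042 and ELOVL6, a fatty acid elongase, by 0.75 ± 0.049. PFKFB3, which makes an activator of glycolysis, fell by 0.47 ± 0.065. FASN and SCD, also named after their values were seen, fell by 0.67 ± 0.14 and 1.0 ± 0.27. Without MitoQ library 2 the falls of FASN and SCD were 0.53 and 0.80. The fall of HK2, hexokinase 2 (-0.15 ± 0.053), was lost with plain library totals and without any 1 of 3 libraries.

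In SKBR3 none of 13 tested targets rose, and 2 fell, LDHA (-0.23 ± 0.042, edgeR adjusted p = 0.00104) and HK2 (-0.30 ± 0.037, edgeR adjusted p = 5.59e-05). KLF10 stood at 0.16 ± 0.062 (edgeR adjusted p = 0.0691, passing without control library 3 or MitoQ library 1) and RGS16 at -0.18 ± 0.11 (edgeR adjusted p = 0.244). The changes of 11 of 14 targets differed between the lines, 8 of them higher in SKBR3 relative to MDA-MB-231, among them LDHA by 1.02 ± 0.063. Over all genes 34.1% differed (19.1% higher and 14.9% lower), a balance that turned with plain library totals, where 41.6% of the called genes were higher against 56.1%.

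**Figure D5:**
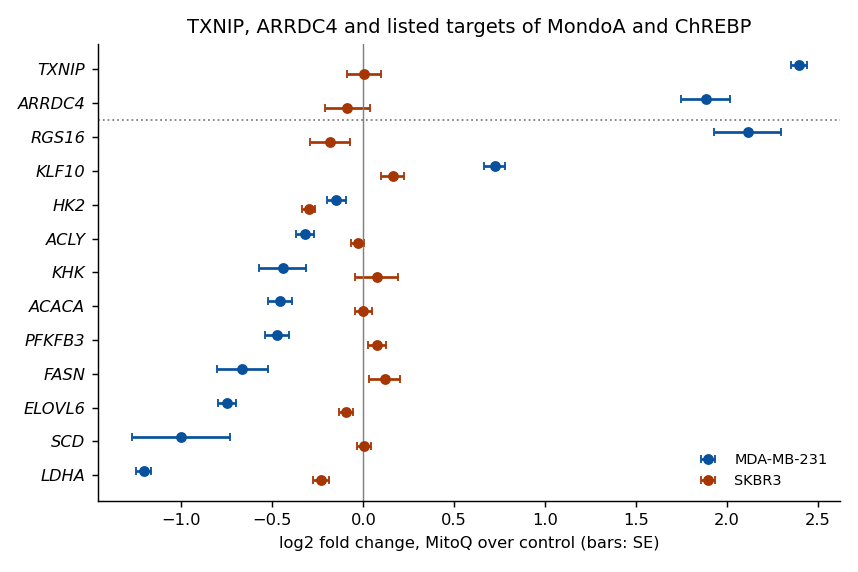
Log2 fold change of MitoQ over control, by line, for TXNIP and ARRDC4 (above the dotted line) and for the 11 listed targets of MondoA and ChREBP that were tested in MDA-MB-231, with bars of 1 SE. In MDA-MB-231, RGS16 at 2.11 and KLF10 at 0.72 lie on the side of TXNIP and ARRDC4, and the 9 others lie between -0.15 and -1.21.

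TXNIP acts on thioredoxin. Of 13 tested genes of the thioredoxin system, 6 were higher and 5 lower in MDA-MB-231. Over all genes 29.9% were higher and 27.6% lower there. TXNRD1, cytosolic thioredoxin reductase, rose from 391 ± 7.36 to 600 ± 82.2 CPM (0.64 ± 0.070) and rose in SKBR3 too, from 471 ± 19.3 to 671 ± 30.4 CPM (0.48 ± 0.037). These changes of TXNRD1 were not shown to differ between the lines (-0.11 ± 0.098, edgeR adjusted p = 0.412). TXN, thioredoxin itself, did not pass in MDA-MB-231 (0.076 ± 0.046) or in SKBR3 (-0.19 ± 0.066, edgeR adjusted p = 0.0581), where it did without control library 3. The mitochondrial peroxiredoxin PRDX3 fell in both lines, by 0.66 ± 0.055 and 0.43 ± 0.041. PRDX1 fell by 0.64 ± 0.044 and 0.20 ± 0.042, with 31.2% of its stretches shared with other genes. PRDX2 and PRDX4, named after their values were seen, fell in MDA-MB-231 by 0.39 ± 0.053 and 0.44 ± 0.053. PRDX5, likewise named after its values were seen, rose there by 0.73 ± 0.088 (edgeR adjusted p = 5.19e-06) and stood at 0.0019 ± 0.051 in SKBR3. NLRP3, the inflammasome sensor that TXNIP can bind, rose from 5.93 ± 0.285 to 15.1 ± 1.88 CPM in MDA-MB-231 (1.37 ± 0.090) and was too low in SKBR3 to be tested. In SKBR3 1 of 12 tested genes rose and 4 fell, the call for PRDX2 being lost without any 1 of 3 libraries and that for TXN2 without MitoQ library 2.

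The partners that alpha-arrestins recruit are HECT ubiquitin ligases of the NEDD4 family and the ESCRT machinery. In MDA-MB-231 8 of 15 tested genes rose and none fell, with a median of 0.11. That is 53.3% called, beside 57.5% of all genes. HECW2 rose by 0.98 ± 0.071, SMURF2 by 0.46 ± 0.039 and NEDD4 by 0.35 ± 0.055. TSG101, the ESCRT subunit bound by ARRDC1, rose from 71.6 ± 2.24 to 88.5 ± 5.79 CPM (0.33 ± 0.049, edgeR adjusted p = 1.28e-05). ITCH, the ligase that targets TXNIP for degradation, stood at the margin (0.11 ± 0.043, edgeR adjusted p = 0.0387) and was no longer called with other size factors or without any 1 of 6 libraries. In SKBR3 1 of 14 rose, SMURF1 (0.18 ± 0.043), and 1 fell, NDFIP1, an adaptor of NEDD4-type ligases. The call for NDFIP1 was lost without any 1 of the 6 libraries.

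Glucose transporters and the first steps of glucose use did not move one way. In MDA-MB-231 4 of 13 tested genes rose and 6 fell, where 29.9% of all genes rose and 27.6% fell. SLC2A1, the gene of GLUT1, whose uptake into the cell TXNIP promotes, fell from 358 ± 17.0 to 260 ± 17.9 CPM (-0.44 ± 0.050, edgeR adjusted p = 4.69e-07). In SKBR3 it fell less, from 346 ± 22.8 to 314 ± 16.1 CPM (-0.17 ± 0.041, edgeR adjusted p = 0.00688), a call lost without MitoQ library 1 or 2, and the difference between the lines was 0.31 ± 0.078 (edgeR adjusted p = 0.0029). HKDC1, a hexokinase-like gene, rose in MDA-MB-231 from 1.66 ± 0.271 to 12.3 ± 0.419 CPM (2.91 ± 0.11), while SKBR3 held 5 and 4 counts over 3 libraries each. SLC2A12 fell in MDA-MB-231 by 1.23 ± 0.11, with 38.4% of its stretches shared with other genes. In SKBR3 3 of 12 rose and 3 fell.

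Among cargo of arrestin-domain proteins, 3 of 8 tested genes rose and 3 fell in MDA-MB-231, beside 29.9% and 27.6% of all genes. ITGB4, integrin beta 4, cargo of ARRDC3, rose from 157 ± 9.33 to 341 ± 70.2 CPM (1.14 ± 0.14, edgeR adjusted p = 8.80e-05). It rose in SKBR3 as well, from 46.1 ± 6.85 to 81.4 ± 4.41 CPM (0.78 ± 0.073, edgeR adjusted p = 2.56e-05), and the difference between the lines did not pass the test (-0.32 ± 0.23, edgeR adjusted p = 0.33) except without MDA-MB-231 MitoQ library 2. EGFR rose in MDA-MB-231 by 0.71 ± 0.050. F2R, the thrombin receptor, fell by 0.57 ± 0.051 and SLC11A2, an iron transporter, by 0.50 ± 0.054. In SKBR3 2 of 7 rose and 1 fell, EGFR at the margin (0.10 ± 0.037, edgeR adjusted p = 0.0486) and lost without any 1 of 5 libraries. Of the other arrestins, ARRB1 was 140 ± 8.11 CPM in SKBR3 controls and 8.38 ± 0.604 CPM in MDA-MB-231 controls (4.12 ± 0.056), the same contrast of lines as ARRDC1. Its changes with MitoQ were at the margin in both lines, 0.22 ± 0.087 and -0.13 ± 0.040, and each was lost when single libraries were left out.

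Other known regulators of TXNIP include forkhead factors, NF-Y, KLF6, HSF1 and AMPK subunits. In MDA-MB-231 6 of 15 rose and 4 fell, beside 29.9% and 27.6% of all genes. FOXO1 rose from 10.8 ± 0.732 to 17.4 ± 2.03 CPM (0.71 ± 0.084), FOXO3 by 0.20 ± 0.041, with 34.9% of its stretches shared with other genes, and KLF6 by 0.57 ± 0.11. PRKAB2, an AMPK subunit, rose by 0.55 ± 0.061 and PRKAG2, another, fell by 0.70 ± 0.044. Of the NF-Y subunits, NFYB, named after its values were seen, fell by 0.44 ± 0.070, and NFYA did not pass the test (0.087 ± 0.042), though it did with plain library totals. In SKBR3 2 of 15 rose and 3 fell, among them KLF6 (0.32 ± 0.051) and PRKAA1, an AMPK catalytic subunit (-0.21 ± 0.041). The calls there for HSF1, NFYA and PRKAB2 were each lost when single libraries were left out.

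The genes whose pattern was most like that of TXNIP were sought by Pearson's correlation of log2 CPM over the 16 libraries, each gene centred within each line, among 11076 genes. The 16 points share treatment and line, so genes that follow MitoQ in MDA-MB-231 alone come first, and the correlation is a description. CTH, which makes cysteine, ranked first (r = 0.994), followed by UPP1, a uridine phosphorylase, RPLP0P2, a ribosomal protein pseudogene whose counts are uncertain, ARHGEF2, a guanine nucleotide exchange factor, and XBP1, a transcription factor of the unfolded protein response (r = 0.993 for all 4). CTH rose from 12.6 ± 1.22 to 101 ± 5.84 CPM in MDA-MB-231 (3.03 ± 0.064) and stood at -0.12 ± 0.11 in SKBR3. ARRDC4 ranked 118 in likeness to TXNIP (r = 0.973), ARRDC3 268 (r = 0.957) and ARRDC2 1042 (r = 0.878). MLX lay near the other end (r = -0.921, rank 10283). The genes most like ARRDC4 were JMY, an actin nucleator (r = 0.990), GFPT1, the first enzyme of hexosamine synthesis (r = 0.989), SLC38A1, a glutamine transporter (r = 0.987), ZFP69B and CEP120. GFPT1 rose in MDA-MB-231 by 1.45 ± 0.065 and fell in SKBR3 by 0.19 ± 0.037. TXNIP ranked 30 in that list.

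The libraries held 14723152 to 29294865 counts in total, so that 3 counts, the most that a count of 0 allows, stand for 0.107 to 0.193 CPM, for counting error only. The 7 members had 85 to 12809 counts per library. The line markers matched the labels: ERBB2 lay at 54.8 CPM in MDA-MB-231 controls and 5216 CPM in SKBR3 controls, and VIM at 3447 and 0.175 CPM. All 7 SKBR3 markers and all 7 MDA-MB-231 markers were higher in the line they mark. The 8 markers of leukocytes, endothelium and fibroblasts summed to between 6.59 and 11.2 CPM per library in MDA-MB-231 and between 28.1 and 38.6 CPM in SKBR3, where CDH5 held more of the sum than any other marker and PTPRC was at most 0.394 CPM. Their part in the results was not tested. Along the first principal component within SKBR3, which held 35.6% of the variance, control library 3 lay at -6.74, between the other controls (-27.8 and -31.3) and the MitoQ libraries (18.2 to 25.4). Without it the SKBR3 log2 fold change was -0.037 for TXNIP, -0.18 for ARRDC4, -0.29 for ARRDC3, 0.38 for ARRDC1, 0.27 for MLXIP and -0.14 for MLX.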

How the data were processed

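RNA was sequenced from 16 libraries of 2 cell lines. The authors deposited 1 table of estimated counts, given as whole numbers. Per the submitters' processing notes Salmon, edgeR and the build GRCh38 were used. For versions, annotation, strand use and how values became whole, the sources used here say nothing. Samples were grouped by line and treatment from their titles. In the table's header the SKBR3 columns bear the number of MDA-MB-231, yet ERBB2 and the other line markers there were those of SKBR3. No 2 libraries of a group agreed within sampling noise.

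The filter filterByExpr, TMM scaling and the test came from edgeR 4.0.16 under R 4.3.3 (robust quasi-likelihood fit, two-sided F test, Benjamini-Hochberg over all genes, threshold 0.05). Comparisons were made within each line, between the control lines, and as an interaction over all 16 libraries. SEs were obtained by dividing the size of the log2 fold change by the root of F. The script was tested on simulated data. Positions and exon lengths (union of exons) come from GENCODE 29, which held 35003 of the 35106 gene IDs, and promoters from RefSeq, where all 7 members matched.

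The members and the 8 pathway lists were chosen with earlier results of these data known. Named genes are the members, the 5 genes most like TXNIP and the 5 most like ARRDC4 among those with a mean of at least 5 CPM, the 3 genes of each list with the smallest p within each line, and a panel. RGS16, SCD, FASN, KHK, ACACA, ACLY, GPD1, PRDX2, PRDX4, PRDX5, SLC2A6, SLC2A8, SLC2A10, PRKAA2, NFYB, NFYC, HSF1, the markers singled out and PSMC3IP were named after their values were seen. Some genes counted in the lists are not reported here by name. The end of the promoter window was chosen after the sequences were seen. Alternatives were other size factors, plain library totals, DESeq2 1.42.0, limma 3.58.1 voom, a 1 CPM filter or none, a threshold of 0.01, mitochondrial genes left out, a single fit over all libraries, a replicate block, and each library left out in turn.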

Additional observations from a re-analysis of the deposited data

Results flagged for a closer look

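ARRDC4 in MDA-MB-231 MitoQ library 2, at 19.9 CPM, stood apart from the other 4 libraries of its group, which lay between 12.2 and 13.4 CPM. It was the 1 such library among 14 groups checked, those of each member in MDA-MB-231 control and MitoQ. The SKBR3 groups had too few libraries to be checked. Chance sets a library apart in about 1 in 20 groups. Over all genes too that library stood apart: its chi-square distance per gene to the other 4 was 14.8 to 19.6, against 3.14 to 10.8 among those 4. That library was also the lowest of its group for ARRDC1, ARRDC2 and MLXIPL.

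ARRDC3 was higher in every MitoQ library of MDA-MB-231 than in its controls, and lower in every MitoQ library of SKBR3. Groups without overlap occurred for 44.0% and 37.9% of all genes in these lines. The SKBR3 change (-0.28 ± 0.13) did not place ARRDC3 among the called genes. It lay between -0.32 and -0.18 with single libraries left out. The difference between the lines, -1.36 on the log2 scale, was not tested, since the gene was chosen with these results known.

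Several genes of the lists changed differently in the 2 lines by the interaction term (SKBR3 minus MDA-MB-231, log2 scale, edgeR adjusted p under 0.05). Among partners of MAX and MLX these were MXD1 (-1.47), MXI1 (-0.69), MLXIPL (-0.61), MYC (-0.55) and MXD3 (1.14). Of the arrestins and their cargo they were EGFR (-0.56), ARRB1 (-0.31), SLC2A1 (0.31), SLC11A2 (0.46) and F2R (0.85). In the thioredoxin system they were PRDX5 (-0.69), TXN (-0.22), PRDX2 (0.26), PRDX3 (0.27), PRDX4 (0.36) and PRDX1 (0.48). Of ubiquitin ligases, their adaptors and ESCRT they were HECW2 (-0.99), NEDD4 (-0.40), TSG101 (-0.34), SMURF2 (-0.30), VPS4B (-0.24), NDFIP1 (-0.23) and SMURF1 (0.28). In glucose use they were HKDC1 (-3.30), SLC2A10 (-0.57), GPI (0.47), SLC2A8 (0.54), SLC2A6 (0.73) and SLC2A12 (1.43), where the size for HKDC1 is not interpretable at 5 and 4 counts in SKBR3 and its call ended without SKBR3 control library 3. Among MondoA and ChREBP targets they were RGS16 (-2.25), GPD1 (-1.57), KLF10 (-0.52), ACLY (0.33), ACACA (0.50), KHK (0.56), PFKFB3 (0.59), ELOVL6 (0.70), FASN (0.82), LDHA (1.02) and SCD (1.05). Among other regulators of TXNIP they were PRKAB2 (-0.69), FOXO1 (-0.61), NFYA (-0.25), FOXO3 (-0.17), NFYB (0.44), PRKAG2 (0.73) and PRKAA2 (1.1). GPD1 held 18 and 48 counts in the 5 MDA-MB-231 controls and 5 MitoQ libraries. PRKAA2 and F2R were far lower in untreated SKBR3 than in untreated MDA-MB-231 (log2 -5.77 and -5.57). Their MitoQ changes in SKBR3 did not pass the test (0.85 ± 0.32 and 0.23 ± 0.25). The calls for FOXO3, KHK, MLXIPL, PRDX2, PRKAA2, SCD, SLC2A10 and TXN were lost when single libraries were left out.

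The genes most like TXNIP and ARRDC4 differed between the lines too, but they were picked by the same libraries, so this is no further evidence. The values were RPLP0P2 (-3.34), CTH (-3.10), ZFP69B (-2.16), ARHGEF2 (-1.94), GFPT1 (-1.60), UPP1 (-1.55), XBP1 (-1.41), JMY (-1.33), SLC38A1 (-1.08) and CEP120 (-0.65).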

How the results depend on the processing

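No alternative reversed the direction of a called value. For the members under MitoQ, 396 of 399 values kept within the spread between replicates. The other 3 came with scaling by library totals, namely 2.46 for TXNIP in MDA-MB-231, and 0.17 for MLX and 0.14 for MLXIP in the difference between the lines. Over the settings 6 members were among the called genes in MDA-MB-231, 2 to 3 in SKBR3, 5 to 6 between the untreated lines and 4 to 6 for the difference. In the untreated lines ARRDC2, at -0.18, passed with limma voom (-0.22, adjusted p = 0.0398) and with no filter (-0.24, adjusted p = 0.0177). It ranged from -0.28 to -0.080 with single libraries left out. Genes called in SKBR3 numbered 4202, 2436 at a threshold of 0.01, 2788 in a single fit over all libraries, and 2565 (without MitoQ library 2) to 4547 with single libraries left out. Genes of the pathway lists called there numbered 25, 13 at the stricter threshold, 15 in the single fit and 14 (without MitoQ library 2; 16 without control library 1) to 26. Of 4552 values of named genes, 210 lost and 36 gained a call; the cause was not tested.

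With the replicate number as a block, 8363 genes were called in MDA-MB-231 (8805 without) and 4758 in SKBR3 (4202 without), and the called members numbered the same, 6 and 2. Samples with the same number did not deviate together (correlation -0.046 to 0.020), and no sample correlated best with its own number. No pairing by number was seen, but so few samples cannot show that it is absent.

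At the depths here, 3 counts stand for up to 0.193 CPM, which limits ARRDC5 and, in SKBR3, HKDC1. With 3 libraries a group, SKBR3 changes near the threshold rest on few values.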
